A study of Homo sapiens with 24 samples.

Results

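Regions in long noncoding RNA genes are stretches of the human genome where at least 1 peak summit of N6-methyladenosine (m6A) sequencing fell inside the span of a gene that RefSeq lists as a long noncoding RNA (lncRNA), and inside no protein-coding gene. Summits of all 12 immunoprecipitated libraries were merged where neighbours lay within 100 nt, which gave 34313 regions. Of these, 1967 (5.73%) met the rule, 29218 touched a protein-coding span, 3114 lay outside both kinds of gene and 14 were set aside because they belonged to MALAT1, NEAT1, H19 or KCNQ1OT1. The 1967 regions held 6193 of 155075 summits (3.99%) and lay in 1226 of 18010 lncRNA genes (6.81%). They were narrow: the median region was 1 nt from first to last summit and the widest was 281 nt.

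The libraries came from HepG2, an established human liver cancer cell line, made into 4 stable lines by lentiviral transduction and puromycin selection. The lines overexpressed EGFP, wild-type METTL14 (WT), METTL14 with the substitution R298P or METTL14 with the substitution D312A, and each line gave 3 biological replicates. All 4 lines therefore carried a lentiviral cassette and had been selected, with EGFP as the line without added METTL14. The labels name no removal of the cells' own METTL14, so the R298P and D312A proteins were expressed in addition to it. Polyadenylated RNA was fragmented and precipitated with an anti-m6A antibody, and each list holds the summits called for 1 precipitated library.

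m6A is placed on RNA in the nucleus by a complex in which METTL3 carries the catalytic site and METTL14 helps to hold the RNA. The complex prefers adenosines in a short context whose commonest core is GGAC, and it acts on mRNA and on polyadenylated lncRNAs alike. LncRNAs include transcripts that start opposite to a coding gene at a shared promoter (symbols ending in DT), transcripts antisense to a coding gene (AS), intergenic transcripts (LINC) and hosts from which microRNAs or small nucleolar RNAs are cut.

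The lists ran from 8669 summits in D312A replicate 2 to 15373 in EGFP replicate 1. No source used here gives the reads behind a list. The depth of each library is thus unknown, and a missing summit is not evidence of an unmethylated RNA. The RNA level of the hosts was not examined here, and fewer summits and less host RNA cannot be told apart. The lists carry no strand, and only gene spans were at hand, so exons and introns were not separated. Across lines, the 4 libraries of replicate 1 resembled each other in which regions they held, after the mean of each line was taken off. Over all regions, 5 of their 6 pairs correlated above 0.1 (0.0864 to 0.180). All 24 pairs of a replicate 1 library with replicate 2 or 3 of another line were below 0, down to -0.150. Taking off the mean of 3 libraries ties these values, because a positive pair pulls the pairs with that line's other replicates below 0. The negative values are therefore not a separate observation. The part of the replicate 1 resemblance in the results was not tested beyond leaving that replicate out. Of the marker genes of hepatocytes, 10 of 10 held a summit in at least 1 library and 2 in all 12. The corresponding counts were 2 of 7 for fibroblasts and stellate cells, 2 of 6 for blood cells and macrophages and 2 of 4 for endothelium, none of them in all 12 libraries, and COL1A1, PTPRC and VWF held no summit.

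For 40 of the 1967 regions, the 61 nt around the median summit, 30 nt on each side, lay inside a gene start window of RefSeq (GRCh38.p14), which covers 250 nt before to 50 nt after a start. These regions lie near annotated starts and do not stand for the other regions. The following 7 stretches are shown because their regions recur in 9 or more libraries or were gained between lines as described further on. Each is written 5′ to 3′ on the strand of its lncRNA, with every GGAC in capitals, and named with its position on hg38:
ZEB1-AS1, chr10:31318178-31318238, minus strand: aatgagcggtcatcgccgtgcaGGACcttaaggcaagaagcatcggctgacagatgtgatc
ST20-AS1, chr15:79923875-79923935, plus strand: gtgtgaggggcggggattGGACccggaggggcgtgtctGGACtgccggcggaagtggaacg
HAGLR, chr2:176188444-176188504, minus strand: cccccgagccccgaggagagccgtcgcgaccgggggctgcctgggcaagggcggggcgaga
LOC642361, chr10:79826696-79826756, plus strand: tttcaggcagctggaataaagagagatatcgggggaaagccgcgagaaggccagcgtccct
STXBP5-AS1, chr6:147204325-147204385, minus strand: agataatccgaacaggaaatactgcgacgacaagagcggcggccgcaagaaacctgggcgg
STXBP5-AS1, chr6:147203730-147203790, minus strand: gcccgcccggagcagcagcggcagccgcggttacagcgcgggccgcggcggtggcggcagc
LINC01560, chrX:47483276-47483336, plus strand: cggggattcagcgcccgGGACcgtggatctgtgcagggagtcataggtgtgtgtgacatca

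The ZEB1-AS1 stretch belongs to a region with a summit in 11 of 12 libraries, all but 1 of R298P. ZEB1-AS1 runs antisense from the start of ZEB1, a transcription factor of epithelial-mesenchymal transition, and the stretch lies in the start window of ZEB1. Its GGAC has the A 6 nt before the median summit. The ST20-AS1 region, in the start window of ST20, was present in 10 libraries: 3 of EGFP, 3 of WT, 3 of R298P and 1 of D312A. It has 2 GGAC, with the A 10 nt before the summit in one and 10 nt after it in the other, which continues to GGACT. HAGLR is a transcript of the HOXD cluster, whose homeobox genes pattern the body axis, and its region was present in 9 libraries. The LOC642361 region was present in 9 as well: 2 of EGFP, 2 of WT, 3 of R298P and 2 of D312A. The HAGLR, LOC642361 and both STXBP5-AS1 stretches have no GGAC, and their GC content is 80.3%, 55.7%, 57.4% and 83.6%. In LINC01560, the A of the GGAC lies 11 nt before the summit, in the start window of ZNF41.

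Over the 40 stretches, GGAC occurred on the host strand in 16 (40.0%) and the longer GGACT, which contains it, in 6 (15.0%). GAACT occurred in 1 (2.5%). Of 560 stretches made in the same way from regions in 1 protein-coding gene, 32.7% held GGAC, 10.4% GGACT and 4.11% GAACT. Over every 61-nt stretch of all RefSeq start windows, the shares were 20.2% on the gene strand and 20.4% on the other strand for GGAC, 5.50% and 5.52% for GGACT, and 4.44% and 4.36% for GAACT. These shares are descriptions with no test, and a match is no evidence that the site is methylated.

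Some regions lay beside microRNA hairpins. Within 500 nt of a region present in 8 or more libraries were MIR34A in the MIR34AHG span (479 nt), MIR570 in MIR570HG (186 nt), MIR4453 in MIR4453HG (50 nt) and MIR7704 near HAGLR (367 nt). Their mature microRNAs, as RefSeq gives them, are written here without hsa-miR-570-5p, with bases 2 to 8, the seed that pairs with targets, in capitals:
hsa-miR-34a-5p: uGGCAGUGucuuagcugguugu
hsa-miR-34a-3p: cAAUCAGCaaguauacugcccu
hsa-miR-570-3p: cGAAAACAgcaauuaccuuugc
hsa-miR-4453: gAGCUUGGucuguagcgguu
hsa-miR-7704: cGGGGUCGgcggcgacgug

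No seed is shared among them. The MIR34AHG region (chr1:9151176-9151189) was present in 11 libraries, all but 1 of R298P. MIR34AHG is the p53-responsive host of miR-34a, a microRNA that restrains the cell cycle. The MIR4453HG region (chr4:152536566-152536603) was present in 9 libraries: 2 of EGFP, 3 of WT, 3 of R298P and 1 of D312A. The MIR570HG region (chr3:195699133-195699215) was present in 8: 2 of EGFP, 3 of WT, 1 of R298P and 2 of D312A. No lncRNA region overlapped a microRNA hairpin or a small nucleolar RNA itself.

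The longest list held the most lncRNA regions and the shortest the fewest. EGFP libraries held 706, 532 and 471 regions (569.7 ± 121.9, SD, n = 3), and WT libraries 595, 470 and 694 (586.3 ± 112.3). R298P libraries held 457, 465 and 561 (494.3 ± 57.9), and D312A libraries 477, 264 and 481 (407.3 ± 124.1). The values of every pair of lines overlapped. D312A replicate 2, the library with the shortest list, stood below the others. All 3 D312A lists were shorter than every EGFP and WT list, with at most 12357 summits against at least 12665 in EGFP and 12620 in WT.

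Relative to the list length, lncRNA regions took 4.61%, 3.85% and 3.74% of the summits in EGFP and 4.03%, 3.74% and 4.59% in WT. The shares were 3.83%, 4.03% and 4.10% in R298P and 3.88%, 3.05% and 3.92% in D312A. The means were 4.07% ± 0.47, 4.12% ± 0.43, 3.98% ± 0.14 and 3.61% ± 0.49 (SD, n = 3), and again each pair of lines overlapped. Without D312A replicate 2, a choice made after the data were seen, the D312A mean was 3.90%.

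**Figure D1:**
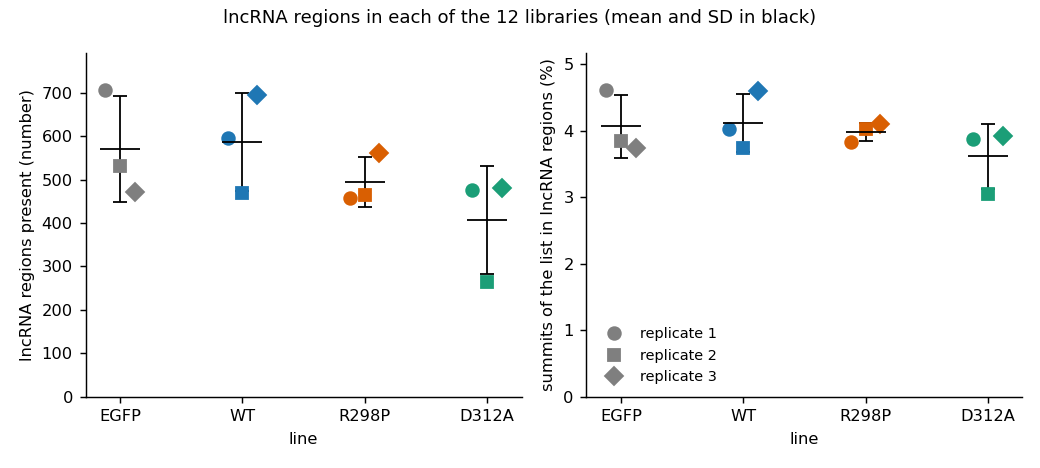
Number of lncRNA regions present in each library (left) and percent of each list's summits that lie in them (right), by line; symbols are replicates, black bars the mean and SD over 3 libraries. The lines overlap in both panels, and D312A replicate 2 is lowest at 264 regions and 3.05%.

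Most lncRNA regions were seen rarely. Of the 1967, 1005 (51.1%) had a summit in 1 library and 88 (4.47%) in all 12. Of regions touching protein-coding genes, 31.7% were in 1 library and 11.1% in all 12, and the median region was in 3 libraries, against 1 for lncRNA regions. Single-library regions made up 6.71% to 23.1% of the lncRNA regions of a library, and 4.22% to 10.9% of all its regions. Of the 44 lncRNA regions present in 11 libraries, 18 lacked only D312A replicate 2, 7 only R298P replicate 1 and 7 only R298P replicate 2.

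Pooled over the 12 libraries, summits in lncRNA regions also ranked lower, but not in replicate 1. The authors' value of each summit, taken to be a −log10 p or q, was used to place it within its list, as the percent of the list's summits that score lower. The median percentile was 43.1 for lncRNA regions and 51.1 for regions touching protein-coding genes. The difference in recurrence was also seen within ranks. Among regions whose best summit was above the 75th percentile of its list, 23.1% of 363 lncRNA regions and 35.7% of 8508 protein-coding regions were in all 12 libraries. Among those whose best summit was at or below the 25th percentile, 87.1% of 714 and 74.9% of 6855 were in 1 library. These shares are descriptive, since regions are not replicates, and the part of host RNA level in them was not tested.

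**Figure D2:**
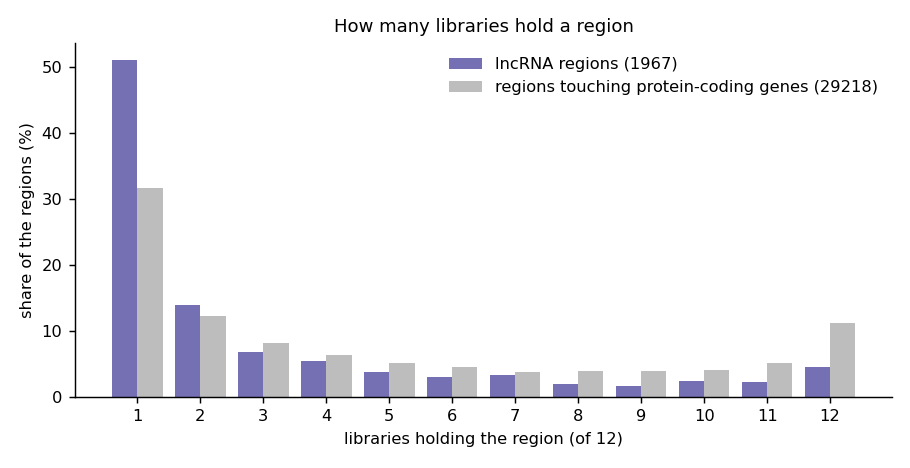
Percent of regions (vertical axis) by the number of the 12 libraries that hold them (horizontal axis), for 1967 lncRNA regions and 29218 regions touching protein-coding genes. The share in 1 library is 51.1% for lncRNA regions and 31.7% for the others, and the share in all 12 is 4.47% and 11.1%.

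Kinds of host were counted over the 1845 regions in a single lncRNA gene, without the 122 in a pair of overlapping genes. Such a region was held by 116 of 591 divergent transcripts (19.6%) and 197 of 2045 antisense transcripts (9.63%). It was held by 197 of 2309 LINC genes (8.53%) and 475 of 12095 genes with only a LOC symbol (3.93%). None of 86 intronic transcripts (IT) held one, a class that the rule removes wherever the coding gene around it is annotated. The rule likewise leaves out the part of an antisense transcript that overlaps its coding gene. Divergent hosts had 215 regions, of which 18 (8.37%) were in all 12 libraries. LOC hosts had 676, of which 15 (2.22%) were in all 12 and 58.9% in 1. The antisense hosts had 335 regions with 18 in all 12, and the LINC hosts 394 with 21. Of all 1967 lncRNA regions, 268 (13.6%) lay within 1000 nt of a protein-coding span and 577 (29.3%) within 5000 nt. There, transcript ends beyond the annotation cannot be told apart from the lncRNA.

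Along the host, lncRNA regions were spread more evenly than those in protein-coding genes. For 1337 regions whose single host has a known strand, the median position was 48.5% of the way from the 5′ to the 3′ end, and 24.0% lay in the last 20% of the span. For 22539 regions in 1 protein-coding gene, the median was 75.3%, and 45.5% lay in the last 20%. Among regions in all 12 libraries, 25.8% of 62 lncRNA regions and 60.1% of 2536 protein-coding regions lay there. When the span was cut into 10 equal parts, the first part held 16.7% and 16.0%, and the last part 14.8% and 33.5%. Spans include introns, and the median span was 21037 nt for the lncRNA regions and 46905 nt for the protein-coding regions, so these positions are not positions along the spliced RNA. The rule also leaves out the parts of lncRNA spans that overlap a coding gene, which shapes where lncRNA regions can lie. Its part in the difference was not tested.

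**Figure D3:**
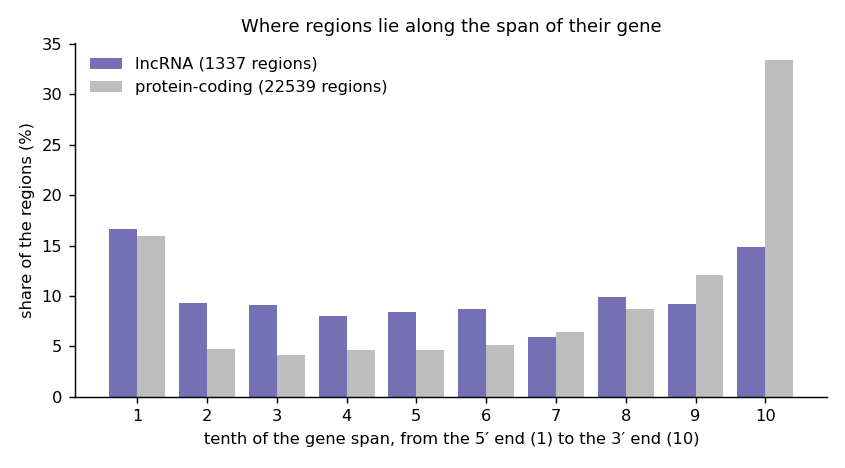
Percent of regions (vertical axis) in each of 10 equal parts of the span of their gene from the 5′ end to the 3′ end (horizontal axis), for 1337 lncRNA and 22539 protein-coding regions. The last part holds 33.5% of the protein-coding and 14.8% of the lncRNA regions. Parts of lncRNA spans that overlap a coding gene are left out by the rule.

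The 1967 regions fell on 1172 hosts, where a host is a gene or a pair of overlapping genes. Most hosts, 812, had 1 region, while 57 had 5 or more and together held 384 regions (19.5%). A summit was present in all 12 libraries for 90 hosts and in 1 library for 569.

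GMDS-DT, divergent from the gene of the GDP-mannose dehydratase needed for fucose synthesis, had the most regions, 14. It had 7, 3 and 5 summits in the EGFP libraries, 7, 5 and 11 in WT, 5, 3 and 3 in R298P and 5, 0 and 3 in D312A. The lines overlapped, and none of the 14 regions was in all 12 libraries.

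TGILR packed 12 regions into a span of 6862 nt (chr6:3905141-3912002). It had 9, 7 and 7 summits in EGFP, 9 in each WT library, 8, 9 and 7 in R298P and 9, 5 and 8 in D312A. Its 96 summits were more than those of any other host. The regions at chr6:3905376-3905399, chr6:3908361-3908551 and chr6:3910135-3910180 were in all 12 libraries, and 2 others were in 11.

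SNHG14, the long imprinted transcript that carries clusters of small nucleolar RNAs and runs antisense to UBE3A, had 11 regions of its own over a span of 595855 nt. Its libraries held 8, 6 and 5 summits in EGFP, 5, 6 and 7 in WT, 6, 7 and 5 in R298P and 5, 2 and 5 in D312A. The regions at chr15:24988485-24988580 and chr15:24990028-24990062 were in all 12 libraries. A region that SNHG14 shares with IPW (chr15:25119268-25119297) was in all 12 as well.

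LINC00205 (chr21:45288052-45297354) had 10 regions in 9303 nt, with 6, 8 and 8 summits in EGFP, 7, 8 and 6 in WT, 7, 4 and 5 in R298P and 6, 4 and 7 in D312A. Of these regions, 3 were in all 12 libraries, 1 was in 11 and 2 were in 9. LINC01128 had 11 regions and 1 in all 12, at chr1:853898-853997. LINC01605 had 11 regions with 2 in all 12, both near its end at chr8:37598058-37598076 and chr8:37598357-37598390. In LOC105377294, which has 9 regions, the nearest of them 413 nt from SEPTIN11, none was in all 12 and D312A replicate 2 had no summit.

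LOC107985365 had 10 regions, none in all 12 libraries, with 1 to 6 summits a library. LOC105373411 had 9 regions, 1 of them in all 12 (chr2:8627598-8627654), and 1 to 6 summits a library. CZ1P-ASNS also had 9 regions but 14 summits in all, and 4 libraries had none.

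LINC01622, with 9 regions, had 4, 3 and 1 summits in EGFP, 1, 0 and 1 in WT, none in R298P and 3, 2 and 1 in D312A. LINC00342 had 6, 3 and 3 in EGFP and 6, 2 and 5 in WT, against 1, 1 and 2 in R298P and 2, 1 and 1 in D312A. Both EGFP and R298P, and both EGFP and D312A, were apart in LINC00342, while WT overlapped with each METTL14 substitution at 2 summits. Neither host passed adjustment in the test described further on, which could pass few genes or none and so does not decide whether they differ.

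**Figure D4:**
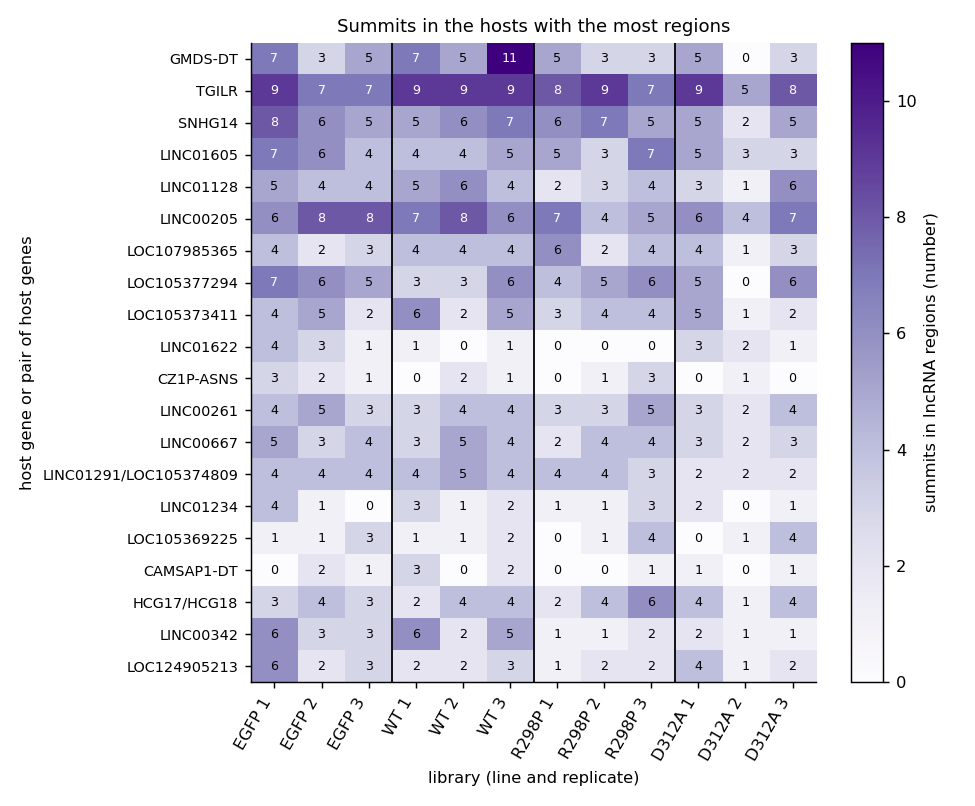
Number of summits in lncRNA regions of the 20 hosts with the most regions (rows) in each of the 12 libraries (columns, in blocks by line), as colour and as printed numbers. TGILR is high in every library, with 5 to 9 summits, and LINC01622 has none in the 3 R298P libraries.

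The 88 regions present in all 12 libraries had median percentiles from 26.4, in DCTN6-DT, to 99.6, and 8 of them were below 50, that of NORAD (40.1) among them. The best ranked lay in CCDC144NL-AS1 (chr17:20929752-20929759), with values between 35.8 and 58.7. Next came COPS8-DT (chr2:237084577-237084592; 99.5), divergent from the gene of a COP9 signalosome subunit. The median percentile was 98.8 in both LINC00205 (chr21:45293414-45293438) and GASAL1 (chr8:102810302-102810332). The NNT-AS1 region, opposite the gene of a mitochondrial transhydrogenase, had 97.8, ZNF496-DT 97.4, LINC00938 96.6 and ZNF407-AS1 95.6. LINC01291 with LOC105374809 had 95.4, C2orf49-DT 95.3, UGDH-AS1 94.7 and NIPBL-DT, divergent from the gene of the cohesin loader, 94.7. The nearest coding span to the NIPBL-DT region lay 564 nt away, and the other 11 lay 1297 nt or more from one. The 88 regions belonged to 73 hosts, and 31 of them lay within 5000 nt of a coding gene.

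Well studied lncRNAs were represented unevenly. Of 30 that RefSeq lists as lncRNAs, 15 held a region, 48 regions in all, and 6 had a summit in every library. Another 4 held only regions that touch a coding gene, which the rule leaves out. NORAD, a cytoplasmic lncRNA that binds Pumilio proteins, had 3, 2 and 2 summits in EGFP, 3, 2 and 2 in WT, 2, 1 and 2 in R298P and 1, 2 and 2 in D312A. Its region at chr20:36050506-36050536 was in all 12 libraries and that at chr20:36049968-36049972 in 10. FTX, a transcript of the X-inactivation centre, had 3, 6 and 4 summits in EGFP, 3, 4 and 3 in WT, 2, 3 and 4 in R298P and 3, 3 and 2 in D312A. Its region at chrX:74203618-74203651 was in all 12. Across 8q24, on either side of MYC, CCAT1 had a region in all 12 libraries (chr8:127209271-127209452) and PVT1 one in 11 (chr8:127890838-127890852). FIRRE, which takes part in nuclear organisation, had a region in 11 libraries (chrX:131795675-131795705).

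Of 19 lncRNAs linked to liver, 3 held a region: LINC00261, FOXD2-AS1 and FAM99B. LINC00261 is transcribed next to FOXA2, a transcription factor of endoderm and liver. It had 8 regions, with 4, 5 and 3 summits in EGFP, 3, 4 and 4 in WT, 3, 3 and 5 in R298P and 3, 2 and 4 in D312A. All lines overlapped, and the region at chr20:22564384-22564423 was in all 12 libraries. FOXD2-AS1 had 3, 2 and 0 summits in EGFP, 2, 2 and 1 in WT, 0, 2 and 0 in R298P and 1, 0 and 0 in D312A. FAM99B had 1 summit in all. HULC and MIR122HG had no region in their spans. HNF4A-AS1 had none that met the rule, but 4 regions in its span touched a coding gene and were not counted.

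Of 87 microRNA hosts, 21 held 45 regions, and 3 had a summit in every library: MIR22HG, MIR34AHG and MIR1915HG. A further 3 hosts held only regions that touch a coding gene. MIR22HG, the host of miR-22, had 1, 2 and 3 summits in EGFP, 1, 1 and 2 in WT, 1, 1 and 2 in R298P and 1, 1 and 3 in D312A. Its region at chr17:1712686-1712720 was in all 12. MIR34AHG had 5, 1 and 2 summits in EGFP, 3 in each WT library, 2, 3 and 2 in R298P and 3, 2 and 2 in D312A. MIR1915HG had 3 in each WT library and 1 to 3 elsewhere. MIR210HG, the host of the hypoxia-induced miR-210, had 1 region in 10 libraries (chr11:567451-567489).

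Of 33 small nucleolar RNA hosts, 4 held 17 regions: SNHG14, SNHG16, SNHG22 and DANCR. SNHG29 held only 1 region that touches a coding gene. Only SNHG14 had a summit in every library. SNHG16, SNHG22 and DANCR had 1 or 2 summits over all 12 libraries.

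A region was called gained in one line against another when all 3 libraries of the first and none of the second held it, and lost when the reverse held. An exact test on 3 libraries a line cannot go below p = 0.1 for a region, so the counts are set beside the percent called over all regions in the same 6 libraries. R298P against WT gained 9 of 1424 lncRNA regions (0.632%; 0.711% over all regions) and lost 12 (0.843%; 1.72%). R298P against EGFP gained 7 of 1447 (0.484%; 0.787%) and lost 7 (0.484%; 1.56%). D312A against WT gained 2 of 1326 (0.151%; 0.116%) and lost 17 (1.28%; 1.32%). D312A against EGFP gained 5 of 1345 (0.372%; 0.168%) and lost 8 (0.595%; 1.17%). WT against EGFP gained 8 of 1508 (0.531%; 0.408%) and lost 1 (0.0663%; 0.255%). R298P against D312A gained 18 of 1246 (1.44%; 1.47%) and lost 1 (0.0803%; 0.366%).

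The lncRNA share of losses was below that of all regions in every pair, by the least for D312A against WT. That of gains was above it for D312A against WT, D312A against EGFP and WT against EGFP, and below it for the others. Regions held by 1 library cannot be called, and they made up 51.1% of lncRNA regions but 35.8% of all regions. The shares therefore do not compare like with like. They rest on counts of 1 to 18, and the differences were not tested. Every D312A list was also shorter than every EGFP and WT list. Of the counts that involve D312A, 3 moved by over 1.5 times without D312A replicate 2. With the 2 libraries left, D312A gained 8 regions against WT and 15 against EGFP, and R298P lost 16 against D312A. The losses of D312A against WT and EGFP were then 18 and 8, and the gains of R298P against D312A 18.

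The balance of gains and losses changed with the setting for some pairs. For WT against EGFP, lists of equal length gave 1 gained and 3 lost, leaving out replicate 3 of each line gave 19 and 34, and leaving out replicate 1 gave 47 and 19. For R298P against EGFP, leaving out replicate 1 gave 43 gained and 28 lost, and leaving out replicate 3 gave 21 and 70. The comparisons share libraries and are not independent.

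GTF3C2-AS2, antisense to the gene of a subunit of transcription factor IIIC, had the best ranked gained region (chr2:27359844-27359848). Its values in R298P were 21.7, 18.7 and 24.5, at a median percentile of 87.0, and no library of the other lines held it. The nearest other summit lay 1047 nt away.

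LINC00673 gained a region in R298P at chr17:72404675-72404715, with values of 10.9, 9.04 and 11.3, and no other line held it. Its neighbour at chr17:72404426-72404435, 240 nt away, was in all 12 libraries, as was the region at chr17:72403552-72403583. PSMA3-AS1, opposite the gene of a proteasome subunit, also had an R298P region (chr14:58294730-58294741; values 9.98, 18.6 and 10.2). A separate PSMA3-AS1 region 317 nt away (chr14:58294393-58294413) was in 2 WT libraries.

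Further gains of R298P against WT lay in LINC02693, LINC02637 and SVIL-AS1, antisense to the supervillin gene. The LINC02693 region (chr17:21534374-21534412) was also in 1 EGFP and 1 D312A library, and the SVIL-AS1 region (chr10:29421249-29421340) in 1 EGFP library. In both hosts a summit of WT lay nearby, at 155 and 251 nt.

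Losses of R298P against WT were led by LINC00342 (chr2:95824832-95824845), with values of 19.9, 17.0 and 13.2 in WT. It was held by 2 EGFP libraries and 1 D312A library too. The LOC101927330 region (chr2:112583546-112583580) was lost from R298P against WT and against EGFP: 6 of 6 EGFP and WT libraries held it, with values from 12.6 to 22.5, and 1 of D312A. LOC124909363, ANKHD1-DT, LOC107986166 and LOC105369299 followed. The regions of ANKHD1-DT and LOC105369299 were held by no D312A library either. The nearest R298P summit lay 115 nt from the LOC124909363 region, 248 nt from that of ANKHD1-DT and 108 nt from that of LOC105369299. For LOC107986166 it lay 155490 nt away. Against EGFP alone, R298P lost regions in MAP4K3-DT (chr2:39498234-39498254) and PNISR-AS1 (chr6:99425696-99425714), and gained regions in EMSLR (chr7:101310710-101310715) and SPEN-AS1 (chr1:15835742-15835779). The nearest R298P summit lay 247 nt from the MAP4K3-DT region and 20421 nt from that of PNISR-AS1. An EGFP summit lay 134 nt from the EMSLR region and 273 nt from that of SPEN-AS1. Another EMSLR region, at chr7:101310849-101310878, was in 10 libraries, all 3 of EGFP among them.

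D312A lacked regions of UGDH-AS1 (chr4:39532639-39532645) and TARS1-DT (chr5:33439666-33439677) that all 3 WT libraries held, with values of 20.4, 12.8 and 16.7 and of 19.2, 14.4 and 16.6. UGDH-AS1 lies opposite the UDP-glucose dehydrogenase gene, and TARS1-DT is divergent from the threonyl-tRNA synthetase gene. In each, 2 EGFP libraries and 1 R298P library held the region. In both hosts another region was held by more libraries: that of UGDH-AS1 at chr4:39534559-39534600 was in all 12 libraries and that of TARS1-DT at chr5:33439862-33439936 in 11, all 3 of D312A among them. The nearest D312A summit lay 136 nt from the lacked UGDH-AS1 region, at chr4:39532773-39532781, which 1 D312A library held. For TARS1-DT it lay 186 nt away. A move of the summit over these distances was not tested.

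Both WT and R298P, but no D312A library, held regions of LINC00680 (chr6:57947001-57947047) and GMDS-DT (chr6:2306405-2306475) in 3 of 3 libraries, with 2 EGFP libraries each. Another LINC00680 region (chr6:57946163-57946215) was in all 12, and the nearest D312A summit lay 799 nt away. Against R298P, D312A also lacked regions of MAP3K9-DT (chr14:70810383-70810393; R298P values 22.8, 17.5 and 23.2), LINC02481 and LINC01560 (chrX:47483298-47483329). The LINC01560 stretch is printed above.

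D312A against EGFP gained the region of STXBP5-AS1 at chr6:147203757-147203764, with values of 29.7, 15.3 and 8.83. STXBP5-AS1 is antisense to the gene of tomosyn, a regulator of vesicle release. Of the other lines, 2 WT and 2 R298P libraries held the region, so EGFP was the line without it. The next region of STXBP5-AS1, at chr6:147203992-147204113, was in 2 EGFP, 3 WT, 3 R298P and 3 D312A libraries, and the one after it, at chr6:147204341-147204372, in 3, 3, 2 and 1. SPRY4-AS1 (chr5:142353499-142353518) was in 3 D312A libraries and 1 of WT, and TTC28-AS1 (chr22:27922094-27922179) in 3 of D312A and 2 of R298P.

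Neighbouring regions were called in opposite directions in LOC105377616. The region at chr4:189708130-189708186 was gained in D312A against EGFP, held by 0, 2, 2 and 3 libraries of EGFP, WT, R298P and D312A. The region at chr4:189708315-189708370, 129 nt further on, was lost, held by 3, 3, 1 and 0. Merging within 200 nt joins these 2 regions, and all 3 libraries of both EGFP and D312A hold the joined one, so neither call remains. In D312A against EGFP, 2 of 5 gained and 1 of 8 lost regions had a summit of the other line within 200 nt. In R298P against WT these were 2 of 9 and 3 of 12, and in D312A against WT 1 of 2 and 5 of 17.

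WT against EGFP gained regions in ZNF277-AS1 (chr7:112344052-112344076), LOC100294145, LOC101927060, LOC124903387, TGILR (chr6:3911735-3911756) and LOC105371763. The ZNF277-AS1 values in WT lay between 9.88 and 20.0. The single loss was in LOC105377294 (chr4:76947503-76947562). The region of LOC107986011 (chr3:24522337-24522363) was in 3 WT and 2 R298P libraries and in none of EGFP or D312A.

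**Figure D5:**
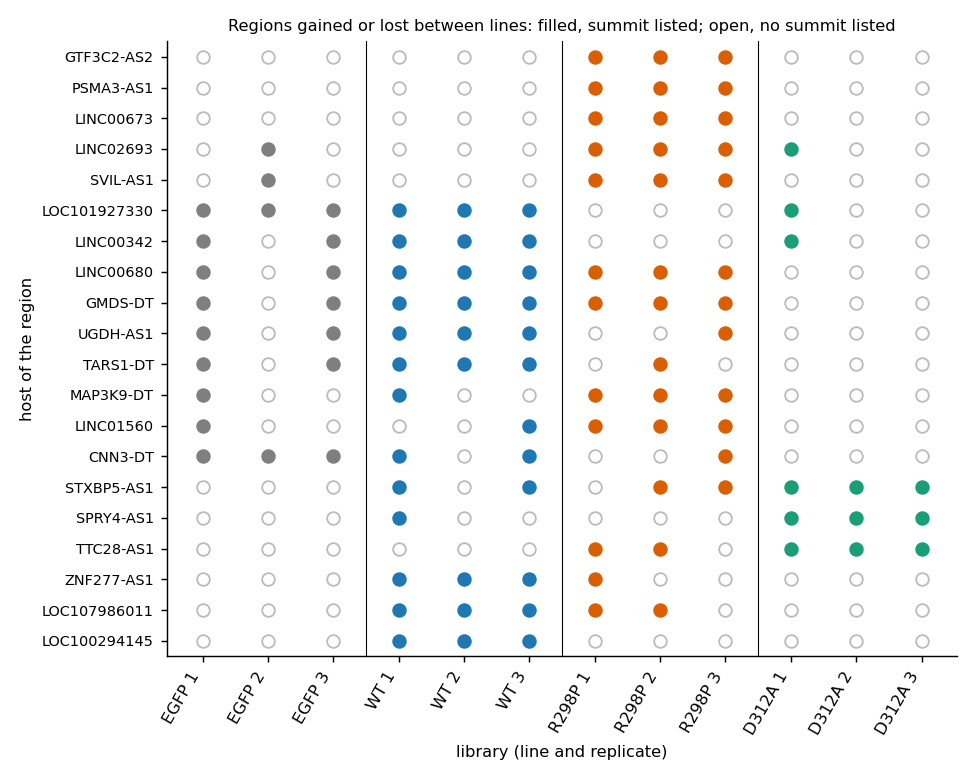
Presence of 20 regions gained or lost between lines (rows, by host) in the 12 libraries (columns); filled circles mark a listed summit, coloured by line, and open circles none. The first 3 rows are held by R298P alone, the last by WT alone, and most other rows by some libraries of further lines.

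Regions held by all 3 libraries of 1 line and none of the other 9 were few. R298P had 3, in GTF3C2-AS2, LINC00673 and PSMA3-AS1 (0.153% of lncRNA regions, beside 0.207% of all regions). WT had 1, in LOC100294145 (chr6:32901090-32901130; values 12.4, 12.4 and 10.5; 0.0508%, beside 0.0758%). EGFP and D312A had none, beside 0.0321% and 0% of all regions. The reverse pattern, a region missing from 1 line and present in the other 9 libraries, occurred in no lncRNA gene. Over all regions it occurred in 0.0204% for EGFP, 0.00291% for WT, 0.067% for R298P and 0.0262% for D312A.

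Summits per host were compared between each line and the other 9 libraries by a two-sided exact permutation test over the 220 choices of 3 of 12 libraries, run on 10556 genes, coding or not, with Benjamini-Hochberg adjustment over 42224 tests. No host passed adjustment (lowest adjusted p 1), and 54 of 4688 host and line pairs had an exact p under 0.05 before it, as did 976 of the 42224. The smallest p these choices allow is 0.00455, and 2 of the 4688 reached it, beside 0.142% of all tests. With this floor and 42224 tests, adjustment could pass few genes or none. Failing it therefore cannot show that a host did not differ between lines.

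LINC01291, whose span overlaps LOC105374809, had 2 summits in each D312A library against 4, 4 and 4 in EGFP, 4, 5 and 4 in WT and 4, 4 and 3 in R298P (exact permutation p = 0.00455, adjusted p = 1). The difference of means was -2.00 summits, and all 3 D312A libraries lay below all 9 others. Of its 8 regions, that at chr2:74930717-74930725 was in all 12 libraries, while that at chr2:74932875-74932918 was in 3 EGFP, 2 WT, 3 R298P and no D312A libraries. LOC100506358 had 1 summit in each WT library and none elsewhere (exact permutation p = 0.00455, adjusted p = 1), from 2 separate regions. Of the listed hosts and those with the most regions, 5 more had an exact permutation p under 0.05, each with an adjusted p of 1. They belong to the 54 of 4688 host and line pairs under 0.05, beside 976 of 42224 tests over all genes. With such a background, their number is no result about these hosts, and the values are given as descriptions. FIRRE had 2 summits in each WT library against a mean of 1.00 elsewhere (exact p = 0.0182). MIR4435-2HG, the host of miR-4435, had 0 in each R298P library against a mean of 1.00 (exact p = 0.0182). This counts its 5 lncRNA regions, while 4 more in its span touch a coding gene and were not counted. GMDS-DT had 7.67 ± 3.06 in WT (SD, n = 3) against 3.78 (exact p = 0.0409), and LINC01138 1.33 ± 0.58 in WT (SD, n = 3) against 0.333 (exact p = 0.0455). Over the 6 regions in FTX alone, EGFP had a mean of 4.33 ± 1.53 summits (SD, n = 3) against 2.78 over the other 9 libraries (exact p = 0.0364).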

How the data were processed

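The 12 immunoprecipitated libraries were used, grouped by their titles. The members and gene lists were chosen with earlier results of these data known. The authors deposited 1 list of summits per library, each with a −log10 p or q value, read as such from its range (lowest value of a list 5.00 to 5.03); which of them is not stated. The submitters' processing notes name STAR 2.7.9a, MACS2 2.1.2, HOMER 4.9 and bedtools 2.17.0 with hg38; their settings and the reads per list are not given in the sources used. Values ranked summits within a list and were not compared between lists. A table of expression in input libraries was not used: its gene identifiers could not be paired with symbols here.

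Summits were merged within 100 nt and placed on RefSeq gene spans (GRCh38.p14). From that table, 718 genes listed on alternate or unplaced scaffolds were left out, a choice made after the data were seen. A region counts as present in a library with 1 or more summits. Named are the 12 hosts with most regions, the 12 best ranked regions in all libraries, up to 6 regions gained or lost each way per pair of lines, regions of 1 line, hosts at the smallest p and members of the gene lists. Calculations used Python 3.11.15, numpy 2.4.6 and pandas 2.3.3. The permutation test was tested on simulated data. Alternatives were merging within 50 or 200 nt, lists of equal length, summit values of at least 10, regions over 5000 nt from coding genes, percent in place of number of summits, a replicate block, and leaving out replicates or the shortest list.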

Additional observations from a re-analysis of the deposited data

How the results depend on the processing

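No host passed adjustment under any setting run. The smallest p that the choices allow left room for few genes or none to pass, so this is no sign of stability. Pairs of host and line with an exact p under 0.05 before adjustment, 54, were 25 with a replicate block (64 choices), 102 with percent of summits in place of numbers, and 27 to 33 without one replicate number. Libraries of the same replicate number correlated between -0.005 and 0.180 across lines, and 5 of 18 pairs were above 0.1, all of them of replicate 1, so the number was not taken as pairing. With scaffold genes kept, no value moved.

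Merging within 50 nt gave 0 gains of D312A against WT and 4 losses of R298P against D312A. Merging within 200 nt gave 1 gain of D312A against WT, 3 of D312A against EGFP, 2 losses of WT against EGFP and 2 of R298P against D312A.

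Lists of equal length, fewer summits by construction, gave 1078 regions. The means per library were 313.7 in EGFP, 317.0 in WT and 322.3 in R298P, and the percents of summits 3.66% in WT and 3.73% in R298P. D312A then lost 7 regions against WT, and gained 1 and lost 1 against EGFP. WT gained 1 and lost 3 against EGFP, and R298P gained 10 and lost 4 against D312A.

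Summit values of at least 10 gave 1226 regions, with means of 395.3 (EGFP), 410.0 (WT), 339.0 (R298P) and 269.7 (D312A), and 3.79% of summits in R298P. R298P then lost 13 regions against EGFP, D312A gained 0 against WT and 0 against EGFP, and WT gained 4 and lost 0 against EGFP.

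Regions over 5000 nt from coding genes gave means of 359.3 (EGFP), 367.7 (WT), 303.7 (R298P) and 266.0 (D312A), and 2.57%, 2.58%, 2.44% and 2.37% of summits. R298P lost 6 against WT, and gained 2 and lost 3 against EGFP. D312A gained 1 and lost 11 against WT, and gained 3 and lost 4 against EGFP. WT gained 5 and lost 0 against EGFP, and R298P gained 10 against D312A.

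Leaving out one replicate number, or D312A replicate 2, asks for fewer libraries. Each count of gains or losses was then at or above the one from all libraries. R298P against WT gained 21 to 32 and lost 42 to 69 regions, and against EGFP 21 to 43 and 28 to 70. D312A against WT gained 5 to 12 and lost 18 to 81, and against EGFP 7 to 24 and 8 to 70. WT against EGFP gained 19 to 47 and lost 17 to 34, and R298P against D312A gained 18 to 66 and lost 9 to 27. Means of regions were 501.5 to 619.0 for EGFP, 532.5 to 644.5 for WT, 461.0 to 513.0 for R298P and 370.5 to 479.0 for D312A, and the percents of summits 3.80% to 4.23%, 3.88% to 4.31%, 3.93% to 4.06% and 3.46% to 3.90%. For these shifts the cause was not tested beyond the fewer libraries or summits. The unknown read depth limits what a missing summit can show.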

Other observations

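The number of lncRNA regions beside that of all regions varied between chromosomes. Chromosome 6 held 178 of them among 1934 regions and chromosome 21 held 49 among 395, whereas chromosome 19, dense in coding genes, held 54 among 2543 and chromosome 17 held 74 among 2087. Chromosome 2 had the most, 182 of 2488. RefSeq lists 1050 lncRNA genes on chromosome 6, 478 on chromosome 19 and 1460 on chromosome 2. These are counts with no test.

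On chromosome 6 the overlapping genes HCG17 and HCG18, in the major histocompatibility complex, had summits in every library. Over the 7 regions they share there were 3, 4 and 3 summits in EGFP, 2, 4 and 4 in WT, 2, 4 and 6 in R298P and 4, 1 and 4 in D312A, and the lines overlapped. The region at chr6:30294700-30294887 was in 3 R298P, 2 WT and 1 EGFP libraries and in none of D312A, and that at chr6:30291697-30291755 in 3 EGFP, 3 WT and 3 D312A libraries and 1 of R298P. In HCG17 alone, the region at chr6:30285503-30285522 was held by all EGFP and WT libraries, by 2 of D312A and by none of R298P.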
